A study of Mus musculus with 384 samples.

Results

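Transcription factors of lung mesenchyme were followed across the deposited single-cell profiles. The 10 genes were taken by name, whatever their values, from the 23422 genes of the count table: Tbx2, Tbx3, Tbx4, Tbx5, Foxf1, Meox2, Mef2c, Hoxa5, Twist1 and Gata6. All 10 are transcription factors, and all 10 are also among the 22276 genes of the filtered expression table. They were described by mouse line and by the level of Acta2, the actin of smooth muscle, with cells at a log2(TPM + 1) of 11 or more called Acta2-high and all others Acta2-lower. TPM is a transcript level corrected for length and scaled to a fixed library total. The mouse was the replicate throughout.

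Cells were sorted from dissociated adult lungs of 2 Lgr5-CreERT2;R26-Tom mice, by the Tom reporter, and of 2 Lgr6-EGFP-CreERT2 mice, by GFP. The labels give an age of 7 to 10 weeks for most mice of the study. Neither an age nor a tamoxifen schedule is given for these 4 mice in the sources used here. The paper states that the Tom-positive cells for sequencing came from Lgr5-line mice after induction. It states no induction for the Lgr6-line mice. All cells were sorted as negative for CD31, CD45, CD11b and TER119, which mark endothelium, blood cells, myeloid cells and erythroid cells. EpCAM was not part of the gate as given for these sorts. Both lines carry a driver placed in the receptor gene, so that a sorted cell is marked by the activity of that driver, and in the Lgr5 line by a permanent label that remains when the driver falls silent. The sort therefore reads a reporter and not the receptor's transcript itself. For the Lgr6 line the paper takes GFP to mark cells in which the Lgr6 locus is active. Line, reporter, induction and mouse cannot be told apart from any effect of the alleles. The libraries came from amplified full-length cDNA with no molecular identifiers. Counts are therefore reads and not molecules, and every interval given for a share covers counting error only.

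Single cells filled 380 wells and pools 4 wells. The authors kept 29 and 28 cells from Lgr5 mouse 1 and 2, and 50 and 75 cells from Lgr6 mouse 1 and 2. The median depth of a kept cell was 263129 counts in Lgr5 mouse 1, 272729 in Lgr5 mouse 2, 332588 in Lgr6 mouse 1 and 1537593 in Lgr6 mouse 2. Acta2-high cells numbered 1 and 0 in the Lgr5 line, against 27 and 38 in the Lgr6 line. Acta2-lower cells numbered 28, 28, 23 and 37. In the Lgr6 mice 10 and 16 cells lay within 1 log2 unit of the limit. Lgr5 had a mean log2(TPM + 1) of 4.99 ± 0.42 (SD, n = 2 mice) in the Lgr5 line and of 0.51 ± 0.31 in the Lgr6 line. Lgr6 stood at 1.67 ± 0.15 in the Lgr5 line and at 1.38 ± 0.32 in the Lgr6 line, so that its level overlapped between the lines. In the Lgr6 line 13 of 50 and 26 of 75 cells had at least 1 count of Lgr6.

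Epithelial and endothelial markers moved with the Acta2 class. The sums of the immune, pericyte and mesenchyme markers differed in direction between the 2 Lgr6 mice. The summed mean TPM of 7 epithelial markers was 85.9 and 4.67 in the Acta2-high cells of Lgr6 mouse 1 and 2, where Epcam was at 0. In the Acta2-lower cells of the same mice it was 43753 and 34840, and in all kept cells of the Lgr5 mice 24881 and 29654. At least 1 of Epcam, Sftpc and Scgb1a1 reached a TPM of 1 in 76 of the kept cells. All 6 endothelial markers were at 0 in the Acta2-high cells of both Lgr6 mice, and in the other groups of at least 3 cells their sum ranged from 2.02 to 31.5. Pecam1, among these 6, was held under a TPM of 1 in every kept cell by the authors' filter. The part of other cell types or of their RNA in the results below was not tested, beyond the values without the 76 cells. In summed profiles, fewer cells with a transcript and less of it per cell cannot be told apart.

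T-box factors bind a shared DNA element and set the shape of the lung bud and trachea, with Tbx4 and Tbx5 acting in the mesenchyme to drive branching and Tbx2 and Tbx3 acting mostly as repressors that keep mesenchyme dividing. Foxf1 is the forkhead factor through which hedgehog signals from the epithelium reach the mesenchyme. Mef2c is a MADS-box factor of muscle, Meox2 a homeobox factor that restrains growth of vascular muscle, Hoxa5 a position factor of the trachea and lung, Twist1 a factor of mesenchymal migration, and Gata6 a zinc finger factor of both airway epithelium and smooth muscle.

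On GRCm38, the build called mm10, with GENCODE M21, Tbx2 lies at chromosome 11, 85832551 to 85841948, with Tbx4 downstream of it at 85886422 to 85916097. Tbx3 and Tbx5 are a similar pair on chromosome 5, at 119670669 to 119684724 and 119832668 to 119885219. Foxf1 lies on chromosome 8 at 121084386 to 121088144, next to the long noncoding gene Fendrr on the other strand, at 121054882 to 121083110. Meox2 lies on chromosome 12 at 37108540 to 37179534 and Twist1 on the same chromosome at 33957671 to 33959829. Mef2c spans 83504034 to 83667080 on chromosome 13, and Hoxa5 52201754 to 52204587 on chromosome 6. Reads were assigned by runs of 31 bases, and such runs shared with a transcript of another gene made up 2.89% of those of Foxf1, 1.33% of Tbx3, 1.14% of Tbx5, 1.02% of Gata6 and under 0.39% of each of the others, in GENCODE M21. No run was shared between any of the 10 factors. The library kit did not mark strand.

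The promoter of Meox2 is shown because Meox2 differed most by Acta2 class. The 250 bases before its start, at chr12:37108290-37108539 on the plus strand of GRCm38.p6 (RefSeq), read as follows, with the letters CANNTG of an E-box and the letters TATAAA of a TATA box in capitals, on whichever strand they stand.

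Meox2: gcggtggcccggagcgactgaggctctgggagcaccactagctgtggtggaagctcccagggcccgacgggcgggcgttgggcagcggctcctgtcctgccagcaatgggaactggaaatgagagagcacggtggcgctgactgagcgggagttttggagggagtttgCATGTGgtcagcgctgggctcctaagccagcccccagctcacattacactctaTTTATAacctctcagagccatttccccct

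The E-box letters stood at 1 place and the TATA letters at 1 place, and neither the CArG box of serum response factor nor the T-box letters GGTGTGA were found on either strand. Of 32851 promoters of the same length, 66.2% held an E-box, 12.4% the TATA letters, 1.47% a CArG box and 3.33% GGTGTGA. Promoters matched by symbol for 5 of the 10 factors, which were Meox2, Tbx4, Mef2c (3 promoters), Hoxa5 and Twist1. None of these 7 promoters held a CArG box or GGTGTGA. A match is a string of letters and not a site.

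Detection ranked the factors first. Over the kept cells of all 4 mice, at least 1 count was read for Tbx5 in 61.5% of cells, Tbx3 in 96 cells (52.7%), Foxf1 in 69 (37.9%), Tbx4 in 61 (33.5%), Tbx2 in 46 (25.3%), Mef2c in 38 (20.9%), Hoxa5 in 24 (13.2%), Gata6 in 20 (11%) and Meox2 in 16 (8.79%). Twist1 was read in 0 of the kept cells, with an exact 95% upper limit of 2.01% of cells with a count. Exact 95% Clopper-Pearson intervals of neighbours in this order overlapped, for example 54.1% to 68.6% for Tbx5 and 45.2% to 60.2% for Tbx3. A count does not always make a level, because 26 of the cells with Tbx5 had a TPM under 1. At a TPM of 1 or more, Tbx5 was present in 47.3% of cells and Tbx3 in 48.4%, so that their order turned.

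A kept cell held a median of 2 and 2.5 of the 10 factors in the Lgr5 line, against 2.5 and 3 in the Lgr6 line. At most 6 of the 10 were read in any cell. In both Lgr6 mice Acta2-high cells held more of them than Acta2-lower cells, with medians of 3 against 2 and of 4 against 2. With every cell thinned to 99000 reads, which left out shallower cells, the expected mean number was 2.60 against 1.76 and 2.76 against 1.76 in these mice. In the Lgr5 mice it was 1.90 and 2.08. Tbx3 and Tbx5 were the pair read together most often, in 67 cells, where independent detection would give 59.1. These cells come from 4 mice and differ in depth, so the pair counts are a description.

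**Figure D1:**
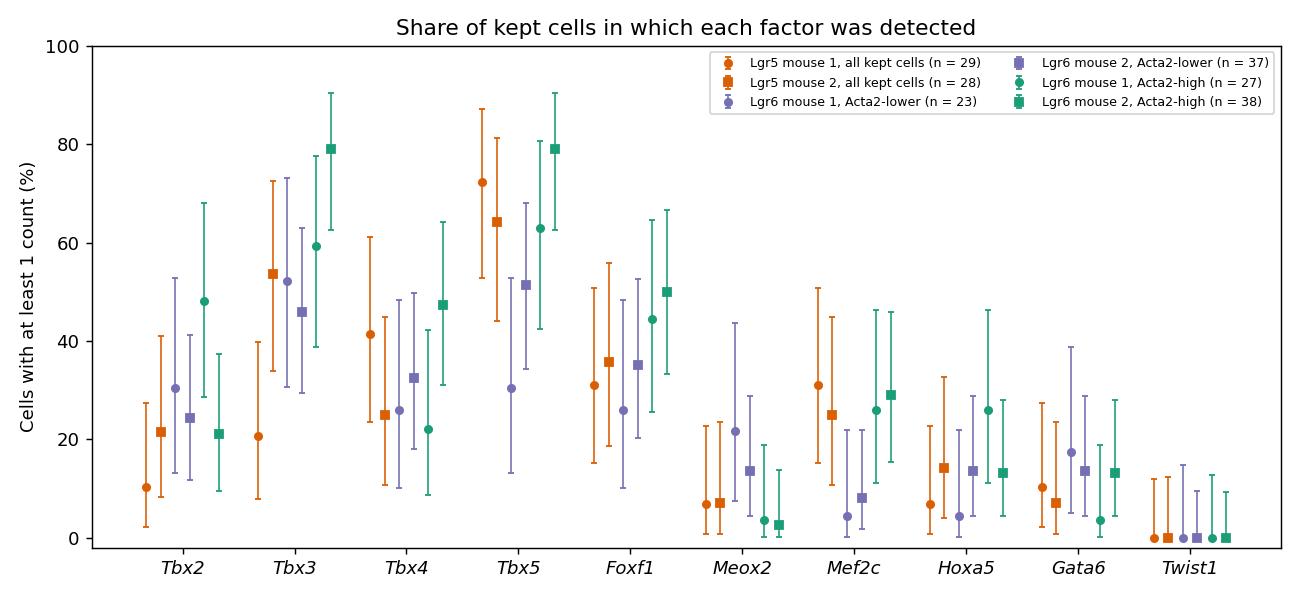
Percent of kept cells with at least 1 count (y axis) for each of the 10 factors (x axis), with exact 95% Clopper-Pearson intervals. Orange points are all kept cells of the Lgr5 mice, purple and green points the Acta2-lower and Acta2-high cells of the Lgr6 mice, circles mouse 1 and squares mouse 2. Meox2 is the only factor for which both green points lie under all others, at 3.70% and 2.63%, and Twist1 is at 0 in every group.

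Per length, on the log2(TPM + 1) scale, the mean over the kept cells of an Lgr6 mouse was highest for Tbx3, at 3.08 ± 0.25 (SD, n = 2 mice). Foxf1 followed at 2.28 ± 0.27, Tbx5 at 2.24 ± 0.48, Tbx2 at 2.07 ± 0.88 and Tbx4 at 1.57 ± 0.33. Hoxa5 stood at 1.02 ± 0.13, Mef2c at 0.86 ± 0.17, Gata6 at 0.53 and Meox2 at 0.52 ± 0.21. In the Lgr5 mice Tbx5 came first at 2.57 ± 0.85, followed by Foxf1 at 2.06 ± 0.08, Tbx3 at 1.68 ± 0.80 and Tbx4 at 1.40 ± 0.19. From Foxf1 to Tbx4 in the Lgr6 line, and from Tbx5 to Tbx4 in the Lgr5 line, neighbours differed by less than the larger of their SDs.

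Between the lines the question was whether Lgr5+ and Lgr6+ mesenchyme use different factors. For each mouse the kept cells' counts were added up. They are given as CPM, counts scaled to a fixed library total after TMM normalization, which are not comparable between genes of different length. No factor passed the threshold of 0.05 on the p adjusted by Benjamini-Hochberg, from the quasi-likelihood test of edgeR. The same test called 0 of 14086 genes (0%), with 1312 at an unadjusted p under 0.05. By DESeq2 567 genes passed and by limma on the mean log2(TPM + 1) 639, with 0 of the 9 tested factors in either. Twist1 was not tested because it had no counts, and the other 9 passed the filter on low counts.

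Of the repressors Tbx2 and Tbx3, both had lower sums in each Lgr5 mouse than in either Lgr6 mouse, and neither passed the test. Tbx2 stood at 8.61 and 11.5 CPM in Lgr5 mouse 1 and 2 and at 71.7 and 38.7 in Lgr6 mouse 1 and 2. Both Lgr5 mice were thus under both Lgr6 mice, with a log2 fold change (Lgr5 minus Lgr6) of -2.46 ± 0.89 (SE) and an adjusted p of 0.442 by edgeR. Its unadjusted p of 0.0298 was the smallest among the factors. In the Lgr5 line 3 of 29 and 6 of 28 cells had a Tbx2 count, against 20 of 50 and 17 of 75 in the Lgr6 line. The top cell held 45.6% to 47% of its counts in each Lgr5 mouse.

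Tbx3 was measured at 15.8 and 72.5 CPM in Lgr5 mouse 1 and 2, against 101.8 and 84.8 CPM in Lgr6 mouse 1 and 2. The ranges were apart, but the Lgr5 mice differed from each other more than Lgr5 mouse 2 differed from either Lgr6 mouse, and the log2 fold change was -1.08 ± 0.83 (SE, adjusted p = 0.767 by edgeR). The share of cells showed the same split inside the Lgr5 line, with 6 of 29 cells in mouse 1 and 15 of 28 in mouse 2. In Lgr5 mouse 2 a single cell held 55.5% of the Tbx3 counts.

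Tbx4 and Tbx5, the activators of lung bud growth, did not separate the lines. Tbx4 had 5.36 and 58 CPM in the Lgr5 line, against 16.2 and 40.3 CPM in the Lgr6 line. The Lgr5 values enclosed the Lgr6 values, and the log2 fold change was 0.17 ± 1.24 (SE, adjusted p = 0.977 by edgeR). Tbx5 had 40.8 and 70.6 CPM against 50.7 and 62.1 CPM, again with the Lgr6 values inside. Single cells held 49.8% of the Tbx4 counts and 56.4% of the Tbx5 counts of Lgr5 mouse 2, which stood at 34.3 and 32.5 CPM without those cells. Against the full sums of the Lgr6 mice, Lgr5 mouse 2 then no longer lay above Lgr6 mouse 2 for Tbx4, nor above either for Tbx5. With the top cell left out of every sum, Tbx4 was at 3.77 and 34.3 CPM against 10 and 30.8 CPM. Tbx5 was then at 35.3 and 32.5 CPM against 29 and 55.8 CPM. On the full sums the log2 fold change of Tbx5 was -0.02 ± 0.67 (SE, adjusted p = 0.995 by edgeR). That leaves room for a difference of more than 1 log2 unit either way at 2 SE. The share of cells with Tbx5 was 72.4% and 64.3% in the Lgr5 line, against 48% and 65.3% in the Lgr6 line.

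Foxf1 stood at 51.7 and 47 CPM in the Lgr5 line, against 58.3 and 81.5 CPM in the Lgr6 line. The lines did not overlap, but the gap between them was smaller than the gap between the Lgr6 mice, and the log2 fold change was -0.50 ± 0.64 (SE, adjusted p = 0.858 by edgeR). A single cell held 45.7% of the Foxf1 counts of Lgr6 mouse 1, and without the cells that carry an epithelial marker the log2 fold change was 0.18. Mef2c was at 10.4 and 18 CPM against 67.8 and 34.6 CPM, with a log2 fold change of -1.85 ± 0.90 (SE) and an adjusted p of 0.620 by edgeR. The share of cells with Mef2c went the other way, at 31% and 25% in the Lgr5 mice against 16% and 18.7% in the Lgr6 mice. The mean log2(TPM + 1) of Mef2c, which weighs cells equally, was 0.88 ± 0.06 and 0.86 ± 0.17 (SD, n = 2 mice), so that the lines were level on that scale. On the linear scale they were not, with a mean TPM per cell of 4.71 and 5.21 in the Lgr5 mice against 9.29 and 13.1 in the Lgr6 mice.

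Hoxa5 had 3.06 and 5.41 CPM in the Lgr5 line, against 20.3 and 13.9 CPM in the Lgr6 line, with a log2 fold change of -2.01 ± 1.28 (SE, adjusted p = 0.706 by edgeR). It was read in 2 of 29 and 4 of 28 cells against 8 of 50 and 10 of 75. Gata6 overlapped, at 3.25 and 7.78 CPM against 2.54 and 9.88 CPM. Meox2 also overlapped, at 13 and 0.23 CPM against 27 and 11.3 CPM, and in Lgr5 mouse 1 a single cell held 99.3% of its counts.

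Both Lgr5 mice were below both Lgr6 mice for 5 of the 9 factors tested (Tbx2, Tbx3, Foxf1, Mef2c and Hoxa5), where 24% of all tested genes were. Both were above for 0 of 9, where 18.9% of all tested genes were. The set below changed once the top cell was left out of each sum. Foxf1 then overlapped, at 37.03 and 30.28 CPM in the Lgr5 mice against 35.73 and 69.8 CPM in the Lgr6 mice. Meox2 no longer overlapped, at 0.101 and 0.0777 CPM against 1.997 and 7.296 CPM. Tbx2, Tbx3, Mef2c and Hoxa5 stayed apart. The median log2 fold change was -1.08 over the 9 factors and -0.05 over all tested genes. With 2 mice in each line the exact two-sided permutation test of the mean log2(TPM + 1) of a factor cannot give a p under 0.333. It gave that value for Tbx2, Tbx3, Meox2 and Gata6.

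**Figure D2:**
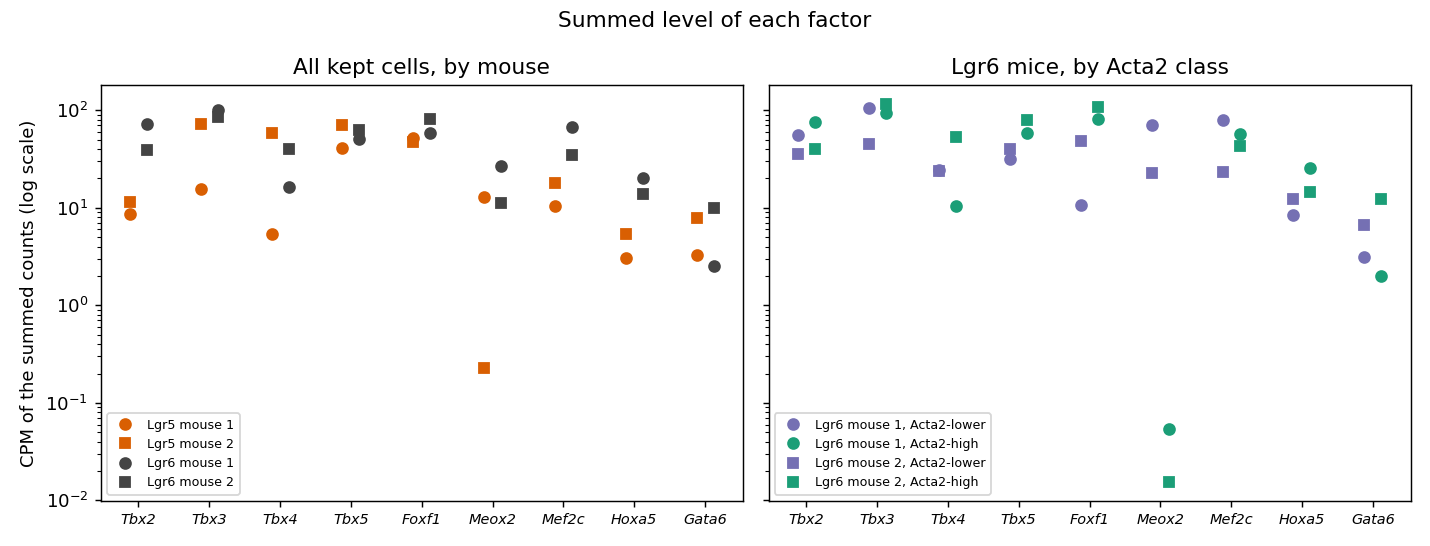
Summed level of each tested factor (x axis) in CPM after TMM normalization (y axis, log scale), 1 point per mouse on the left and per mouse and Acta2 class on the right. On the left, Tbx2, Tbx3, Foxf1, Mef2c and Hoxa5 have both orange Lgr5 points under both dark Lgr6 points. On the right, the Acta2-high points of Meox2 lie far under its Acta2-lower points, while those of Foxf1 lie above.

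Among Acta2-lower cells the lines were compared without the Acta2-high cells, which came almost only from the Lgr6 mice. Of 12958 genes, 0 passed (0%) by edgeR, and 976 had an unadjusted p under 0.05, with no factor among them. By DESeq2 389 passed and by limma on the mean log2(TPM + 1) 262, with 0 factors in either. Tbx2 was at 9.19 and 10.9 CPM in the Lgr5 line, against 60 and 35.3 CPM in the Lgr6 line, so that the ranges stayed apart (log2 fold change -2.24 ± 1.26 SE, adjusted p = 0.824 by edgeR). Mef2c was at 11.1 and 17.1 CPM against 84.8 and 23.3 CPM. In the Lgr6 mice these Mef2c values rest on 1 of 23 and 3 of 37 cells, and in the Lgr5 mice on 9 of 28 and 7 of 28. The mean log2(TPM + 1) of Mef2c went the other way, at 0.90 ± 0.09 (SD, n = 2 mice) in the Lgr5 line against 0.40 ± 0.19.

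Tbx5 and Foxf1 had positive log2 fold changes in this comparison, at 0.57 ± 0.99 and 0.56 ± 1.17 (SE). Tbx5 was higher in both Lgr5 mice, at 43.6 and 67 CPM against 34.4 and 40.2 CPM, and was read in 30.4% and 51.4% of the Acta2-lower cells of the Lgr6 mice. It was the only 1 of 9 factors with both Lgr5 mice above both Lgr6 mice, where 19% of all tested genes were. A single cell of Lgr5 mouse 2 held 56.4% of its Tbx5 counts. Without that cell alone Lgr5 mouse 2 stood at 30.8 CPM, under the full sums of both Lgr6 mice. With the top cell left out of each of the 4 sums, Tbx5 was at 37.7 and 30.8 CPM against 9.74 and 27.2 CPM. Both Lgr5 mice then still lay above both Lgr6 mice. On the log2 of mean TPM plus 0.1 the sign of Tbx5 and of Foxf1 turned, to -0.25 for each. Both Lgr5 mice were below both Lgr6 mice for 4 of 9 (Tbx2, Meox2, Mef2c and Hoxa5), where 18.7% were. With the top cell left out of each sum, Tbx2 and Meox2 stayed apart, while Mef2c and Hoxa5 overlapped. Mef2c was then at 6.48 and 10.6 against 0 and 12.5 CPM, and Hoxa5 at 0.42 and 2.42 against 0 and 9.19 CPM. The Hoxa5 counts of Lgr6 mouse 1 came from 1 of 23 cells. The median log2 fold change was -0.89 over the 9 factors.

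Within the Lgr6 line the question was which factors go with smooth muscle actin. Acta2-high and Acta2-lower cells of the same mouse were compared in the 2 Lgr6 mice, with the mouse as a term of the fit. The Lgr5 mice had too few Acta2-high cells to enter, and a test of whether the class effect differs between the lines could not be fitted. Of 13528 genes, 3 passed (0.0222%), and 1038 had an unadjusted p under 0.05. The number called was 922 by DESeq2 and 689 by limma on the mean log2(TPM + 1). The 3 genes of edgeR, named after their values were seen, were Sftpa1, Sftpc and Sftpd, surfactant genes of alveolar type II epithelium, and all were lower in Acta2-high cells. Without the 13 and 26 cells of Lgr6 mouse 1 and 2 with an epithelial marker edgeR called 0.

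Meox2 showed the largest difference of the 10 factors. In Lgr6 mouse 1 it had 1 count over 27 Acta2-high cells and 755 counts over 23 Acta2-lower cells. In Lgr6 mouse 2 it had 1 count over 38 Acta2-high cells and 1359 counts over 37 Acta2-lower cells. As a ratio of normalized counts, the Acta2-lower cells were 1289-fold higher in mouse 1 (exact 95% counting interval 231 to 50997) and 1477-fold higher in mouse 2 (265 to 58380). These intervals cover counting error only and take reads as independent. With the top Acta2-lower cell of each mouse left out, the ratios were 125.8 and 971, the first of them under its interval. The classes did not overlap, and the edgeR fit gave a log2 fold change of -10.25 ± 1.86 (SE) with an unadjusted p of 0.0028 and an adjusted p of 0.468. The call depended on the tool: the adjusted p was 3.1e-09 by DESeq2 (log2 fold change -10.46) and 0.0114 by limma on the mean log2(TPM + 1) of the cells (difference -1.11), and between 0.250 and 0.795 in the 10 other settings tested. Meox2 passed the filter on low counts through its Acta2-lower sums alone, so that it had to differ to be tested.

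The Meox2 counts came from few cells. It was read in 5 of 23 and 5 of 37 Acta2-lower cells, and a single cell held 93.8% of the counts in mouse 1 and 36.1% in mouse 2. The Acta2-high cells that had it were 1 of 27 and 1 of 38, each with 1 count and a TPM under 1. A TPM of 1 or more was reached in 0 of 27 and 0 of 38 Acta2-high cells, against 5 of 23 and 5 of 37 Acta2-lower cells. Depth per cell differed between the classes in mouse 1, with medians of 418813 counts in Acta2-high and 165685 in Acta2-lower cells, and hardly in mouse 2, with 1546057 and 1511706. At 99000 reads per cell the expected share was 0.27% against 12.5% in mouse 1 and 0.15% against 10.6% in mouse 2. Without the 13 and 26 cells of these mice that carried an epithelial marker, the log2 fold change was -12.98 with an unadjusted p of 0.018 and an adjusted p of 0.795 by edgeR.

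Meox2 was read mostly in cells with Pdgfra, a receptor of fibroblasts. Over the 4 mice, 14 Acta2-lower cells had Meox2, and 10 of these 14 had Pdgfra at a TPM of 1 or more, against 8.82% of the other Acta2-lower cells. By mouse, 5 of 5 and 4 of 5 cells with Meox2 had Pdgfra in Lgr6 mouse 1 and 2, while in the Lgr5 mice 1 of 2 and 0 of 2 did. Tbx2 had a smaller split with Pdgfra, with Pdgfra in 40% of the 25 Acta2-lower cells with Tbx2 and in 9.89% of the rest. Tbx2 was itself read in 3 of 5 and 3 of 5 of the Meox2 cells of the Lgr6 mice. Pdgfrb, a receptor of pericytes and fibroblasts, was present in 56.8% of the 37 Acta2-lower cells with Foxf1 and in 12.7% of the rest. Tagln, listed as a smooth muscle marker, was also more frequent with Foxf1, at 62.2% against 35.4%. Epcam went the other way, at 8.11% against 24.1%. Cspg4, listed as a pericyte marker, was present in 2.70% against 11.4%, and Pdgfra in 16.2% against 16.5%. In Acta2-high cells the split with Pdgfrb was not seen, with Pdgfrb in 25% of the 32 cells with Foxf1 and in 35.3% of the rest. These Foxf1 shares pool the cells of 4 mice. Among Acta2-lower cells Gata6 was read mostly in cells with epithelial transcripts. Of the 14 Acta2-lower cells with Gata6, 57.1% had Epcam and 71.4% had Sftpc at a TPM of 1 or more, against 13.7% and 30.4% of the rest. These pairs were chosen after their values were seen.

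**Figure D3:**
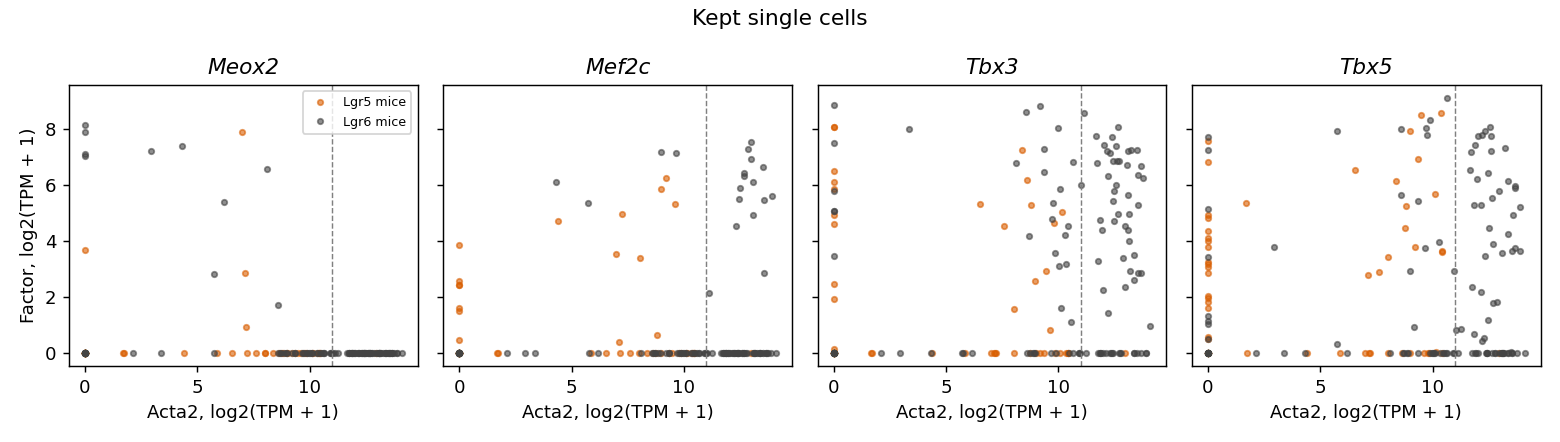
Level of Meox2, Mef2c, Tbx3 and Tbx5 (y axis) against Acta2 (x axis) in the kept cells of all 4 mice, both as log2(TPM + 1). Orange points are Lgr5 cells, dark points Lgr6 cells and the dashed line is the limit of 11. No cell to the right of the line reaches a TPM of 1 for Meox2, whereas Mef2c, Tbx3 and Tbx5 have cells there.

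Foxf1 went the other way. It had 82.3 and 107.8 CPM in the Acta2-high cells of Lgr6 mouse 1 and 2, and 10.7 and 48.5 CPM in the Acta2-lower cells. Both mice were higher in Acta2-high cells, with a log2 fold change of 2.05 ± 0.94 (SE), an unadjusted p of 0.0819 and an adjusted p of 0.789 by edgeR. It was read in 12 of 27 and 19 of 38 Acta2-high cells, and in 6 of 23 and 13 of 37 Acta2-lower cells.

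Tbx5 had 58.5 and 79 CPM in Acta2-high cells and 31.8 and 40.2 CPM in Acta2-lower cells. Both mice were higher in Acta2-high cells, at a log2 fold change of 0.93 ± 0.85 (SE, adjusted p = 1 by edgeR). The mean TPM of Tbx5 per cell split by mouse, at 21.5 in Acta2-high and 46.7 in Acta2-lower cells of mouse 1 and at 53.4 and 36.7 in mouse 2, and on the log2 of mean TPM plus 0.1 the fitted sign turned to -0.28. Its share of cells was 63% and 78.9% in Acta2-high cells against 30.4% and 51.4% in Acta2-lower cells, and at 99000 reads 46.4% and 57.2% against 24.7% and 33.8%.

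Tbx3 differed by mouse. In Lgr6 mouse 2 it was at 116.5 CPM in Acta2-high and 45.6 CPM in Acta2-lower cells, and in mouse 1 at 93.2 and 105.1 CPM. Its share was higher in Acta2-high cells of both mice, at 59.3% against 52.2% and at 78.9% against 45.9%. The log2 fold change was 0.59 ± 0.77 (SE, adjusted p = 1 by edgeR). Tbx4 also split, from 10.5 against 24.2 CPM in mouse 1 to 53.3 against 23.9 CPM in mouse 2, around a log2 fold change of -0.02 ± 1.33 (SE). Tbx2 lay at 76.4 and 39.9 CPM in Acta2-high and 55.6 and 35.3 CPM in Acta2-lower cells. Its share of cells was 48.1% and 21.1% against 30.4% and 24.3%. With the top cell left out of each sum, Tbx2 was at 38.6 against 13.2 CPM in mouse 1 and turned to 26.5 against 28.2 CPM in mouse 2.

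Mef2c was at 57.1 and 43.1 CPM in Acta2-high and at 78.6 and 23.3 CPM in Acta2-lower cells, so that the mice differed in direction. The cells behind these sums were not alike. In Acta2-high cells it was read in 7 of 27 and 11 of 38, and in Acta2-lower cells in 1 of 23 and 3 of 37, with all 847 counts of mouse 1 in a single cell. The mean log2(TPM + 1) was higher in Acta2-high cells of both mice, at 1.13 against 0.27 and at 1.41 against 0.53. Hoxa5 stood at 25.8 and 14.5 against 8.54 and 12.4 CPM. All its Acta2-lower counts of mouse 1 came from 1 of 23 cells. The share of cells with Hoxa5 was 25.9% and 13.2% against 4.35% and 13.5%. With the top cell left out of each sum, Hoxa5 was at 16.3 and 8.99 against 0 and 9.20 CPM. Gata6 stood at 2.01 and 12.4 against 3.15 and 6.64 CPM.

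Acta2-high cells were higher in both Lgr6 mice for 4 of the 9 factors (Tbx2, Tbx5, Foxf1 and Hoxa5), where 27.5% of all tested genes were, and lower in both for 1 of 9 (Meox2), where 27.7% were. With the top cell left out of each sum, Tbx2 and Hoxa5 were lower in the Acta2-high cells of mouse 2. The median log2 fold change was 0.32 over the 9 factors and 0.02 over all tested genes. No factor passed the adjusted p of 0.05 by edgeR in this comparison.

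**Figure D4:**
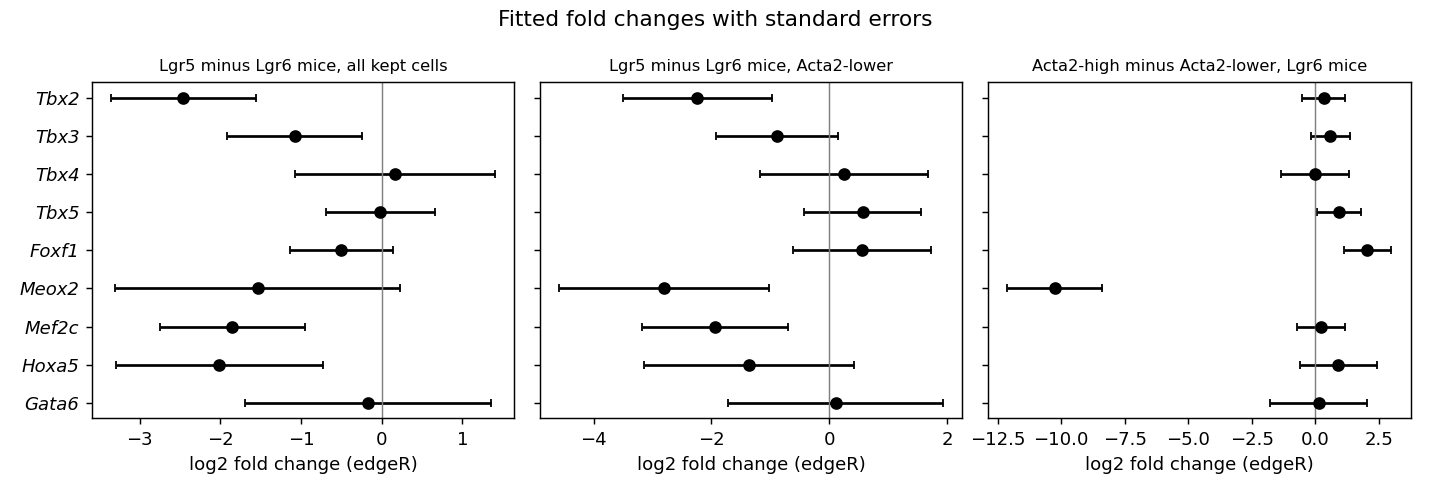
Log2 fold change (x axis) with its standard error (bars) of the 9 tested factors in 3 comparisons, from edgeR. Each panel has its own x axis. Meox2, at -10.25 in the right panel, is the only factor more than 5 log2 units from 0, and no factor passed the adjusted p of 0.05 in any panel.

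The other transcription factors of lung mesenchyme gave the background to these 10. Of a list of 36, 33 were tested between the lines, 30 between the Acta2 classes and 33 among Acta2-lower cells, and 0 passed by edgeR in each. DESeq2 called 3, 1 and 3 of them, and limma on the mean log2(TPM + 1) 4, 2 and 0. The median log2 fold change of the list was -0.67, -0.10 and -0.43. The smallest unadjusted p between the lines belonged to Gli1, the hedgehog effector, at 0 and 0.15 CPM in the Lgr5 line, against 28.8 and 23.2 CPM in the Lgr6 line (adjusted p = 0.327 by edgeR). Myocd, the coactivator of smooth muscle genes, was at 130.9 and 109.9 CPM against 380.7 and 343.4 CPM, and Hoxa2 at 0 and 0 against 14.9 and 4.40 CPM. By Acta2 class the smallest p belonged to Myocd, at 482.6 and 534.9 CPM in Acta2-high and 163.6 and 116.1 CPM in Acta2-lower cells (log2 fold change 1.88 ± 0.45 SE, adjusted p = 0.602 by edgeR). Tcf21, a factor of lung fibroblasts, had 0 counts in Acta2-high cells and 68 and 40 counts in Acta2-lower cells, and Klf4 stood at 24.7 and 5.71 against 86.2 and 59.9 CPM. Among Acta2-lower cells the 3 with the smallest p were Hoxa4, Hoxa2 and Heyl. Several of these genes passed the filter on low counts through a single group, so that they had to differ to be tested. Gli1 and Hoxa2 passed through the Lgr6 sums alone, Hoxa4 through the Lgr5 sums alone and Tcf21 through the Acta2-lower sums alone.

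No gene tracked a factor closely over cells. Tbx2, Tbx3, Tbx4, Tbx5 and Foxf1 were read in at least 20% of the kept cells of both Lgr6 mice. Among 8950 candidate genes, the highest mean Spearman correlation over the cells of the 2 mice was 0.48, between Tbx5 and 9830147E19Rik, with Adat1 next at 0.42. The nearest pairs of the others lay between 0.34 and 0.39, with Sbds and Psmb7 for Tbx2, Ufd1l and Adcy5 for Tbx3, Gas2l3 and 2310039L15Rik for Tbx4, and Gpr64 and Ubr2 for Foxf1. In sparse counts of shared libraries these values are a description.

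The pool wells, 1 per mouse, were shallow except for Lgr6 mouse 2. Their totals were 353310 and 204948 counts for the Lgr5 line, and 66586 and 2203576 for the Lgr6 line. In the pool of Lgr6 mouse 2, Tbx3 had 448 counts, Foxf1 353 and Tbx5 259. Tbx2 and Tbx4 were also read, while Meox2, Mef2c, Hoxa5, Gata6 and Twist1 had 0, beside 40322 counts of Acta2. The pool of Lgr5 mouse 2 held Tbx3 and 28 counts of Mef2c, and 0 of the other 8 factors. In the pools of Lgr5 mouse 1 and Lgr6 mouse 1 no factor had more than 2 counts. Only Tbx3 passed the filter on low counts there, and edgeR called 0 of 2511 genes, with 386 at an unadjusted p under 0.05.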

How the data were processed

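Single-cell libraries from 2 Lgr5-CreERT2;R26-Tom and 2 Lgr6-EGFP-CreERT2 mice were analysed, 380 single cells and 4 pools. The authors pseudo-aligned paired reads to the mm10 transcriptome with kallisto in runs of 31 bases, summed transcripts to genes and deposited counts for all wells. Per the submitters' notes, kallisto was version 0.43.0, and the annotation release is not given in the sources used here. The authors deposited log2(TPM + 1) too, in a table of every well and in a table of the 182 cells left by their filter. It asked for at least 2000 genes, reporter expression, and Ptprc and Pecam1 under a TPM of 1. The authors also removed cells with very low expression of housekeeping genes, and cells with an outlying number of genes. Their table of scaled counts was not used. Groups were taken from the titles.

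Summing joined the counts of a mouse's kept cells, whole or split by Acta2 class where the class had at least 3 cells. Sums were compared with edgeR 4.0.16 in R 4.3.3 (TMM, filterByExpr, glmQLFit, glmQLFTest) over all genes, with Benjamini-Hochberg adjustment and a threshold of 0.05. Acta2 itself was left out of the counts of called genes between the classes. The standard error was taken as the size of the log2 fold change over the square root of its F value. The ribosomal precursor Rn45s took 25.0% to 37.5% of the counts of a mouse. Summed counts were 9874249 to 124650544 per mouse, so that rarely read factors are far less precise in the Lgr5 mice. The class comparison pairs cells of the same mouse.

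Shares have exact 95% Clopper-Pearson intervals, also where the share is 0. Expected shares at 99000 reads were computed from each cell's counts. Alternatives were DESeq2 1.42.0, limma 3.58.1 on mean log2(TPM + 1) or on the log2 of mean TPM plus 0.1 or 1, other scalings, no filter, other Acta2 limits, all wells, cells without epithelial markers, and each mouse left out. The scripts were tested on simulated data. The named genes were the 10 factors, Acta2, Lgr5 and Lgr6, every gene of the list of 36 past the threshold or else the 3 with the smallest p, and the 2 genes most like each factor read in at least 20% of cells. The factors and lists were chosen with earlier results of these data known. The sums without Rn45s were chosen after seeing the data. Gene positions are from GENCODE M21.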

Additional observations from a re-analysis of the deposited data

Results flagged for a closer look

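The wells that the authors removed entered only the alternative with all single-cell wells, and 6 of the 10 factors were read more often in those of the Lgr5 line. In Lgr5 mouse 1 and 2, 59 and 54 removed wells had at least 2000 genes, against 29 and 28 kept cells, and over both mice the exact 95% interval of the share of removed wells lay above that of the kept cells for these 6. The same held for 34.8% of the 22785 genes with a count in these wells or cells. The intervals pool wells of 2 mice and cover counting error only. Tbx2 was read in 41.6% of removed wells and 15.8% of kept cells, and Tbx3 in 61.1% and 36.8%. Tbx3 differed by mouse, with 71.2% of removed wells and 20.7% of kept cells in Lgr5 mouse 1 but 50% and 53.6% in Lgr5 mouse 2. Foxf1 was read in 59.3% and 33.3%, and Mef2c in 63.7% and 28.1%. Meox2 was read in 28.3% and 7.02%, and Hoxa5 in 31% and 10.5%. Tbx5 (78.8% and 68.4%), Tbx4 (38.9% and 33.3%) and Gata6 (15.9% and 8.77%) had intervals that overlapped. The other 5 of the 6 were read more often in removed wells of both mice. In Lgr5 mouse 2 the shares of removed wells and kept cells were 35.2% and 21.4% for Tbx2, 53.7% and 35.7% for Foxf1, 57.4% and 25% for Mef2c, 20.4% and 7.14% for Meox2, and 22.2% and 14.3% for Hoxa5.

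These wells are not like the kept cells in other ways, and the part of this in the shares was not tested. They had a median of 9418 and 6503 genes in Lgr5 mouse 1 and 2, where kept cells had 4277 and 3640, at 293816 and 217032 counts against 263129 and 272729. Pecam1 and Ptprc were both at a TPM of 1 or more in 54 of these wells, Pecam1 alone in 28, Ptprc alone in 18 and neither in 13. Foxf1 was read in 40 of the 54, 18 of the 28, 9 of the 18 and 0 of the 13. Mef2c was read in 44, 14, 9 and 5 of these wells, and Tbx5 in 44, 22, 13 and 10. Twist1 had 1 count in 1 well, which held both Pecam1 and Ptprc. In the Lgr6 mice only 10 removed wells had at least 2000 genes, and no factor had an interval above that of the kept cells.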

How the results depend on the processing

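No factor passed the adjusted threshold of 0.05 between the lines, in all kept cells or in Acta2-lower cells, under any alternative run. By Acta2 class Meox2 passed under DESeq2 and under limma on the mean log2(TPM + 1), with log2 values of -10.46 and -1.11, and in no other. It had passed the filter on low counts through its Acta2-lower sums alone, so that it had to differ to be tested. At an Acta2 limit of 10 it did not enter the fit. The number of genes called rested on the tool far more than any factor did. Between the lines it was 0 by edgeR, 567 (4.03% of those tested) by DESeq2, 639 (4.54%) by limma on the mean log2(TPM + 1), 408 (2.07%) with no filter on low counts, 16 (0.114%) and 38 (0.27%) by limma on mean TPM plus 0.1 and plus 1, 1 (0.00828%) without the cells that carry an epithelial marker, and 0.738% with all single-cell wells. Among Acta2-lower cells it was 0 by edgeR, 389 (3.002%) by DESeq2, 262 (2.02%) by limma on the mean log2(TPM + 1), 0.818% with no filter, and 3 (0.0232%) and 28 (0.216%) on mean TPM. By Acta2 class it was 3 by edgeR, 922 (6.82%) by DESeq2, 689 (5.09%) by limma on the mean log2(TPM + 1), 10 (0.0739%) and 41 (0.303%) on mean TPM, and 6 (0.0444%) with DESeq2 size factors. It was 6 (0.0446%) without Rn45s, 14 (0.124%) at an Acta2 limit of 10, 64 (0.532%) with classes of at least 1 cell, and 0 without the epithelial-marker cells, at a limit of 12 or without the replicate block. The limit of 10 brings both Lgr5 mice into the fit, and the classes of 1 cell bring in Lgr5 mouse 1. The cause of these changes was not tested.

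With each mouse left out, the lone mouse of a line is assumed to vary like the others. The percent called between the lines ran from 0% to 0.217%, with 34 genes without Lgr6 mouse 1, 7 without Lgr6 mouse 2, and 0 without either Lgr5 mouse. Among Acta2-lower cells it ran from 0.0409% to 0.501%, with 25 and 6 genes without Lgr5 mouse 1 and 2, and 27 and 74 without Lgr6 mouse 1 and 2. By Acta2 class, leaving out a mouse gives values with no test. The mouse numbers do not pair mice across the lines, and the correlation of the deviations of same-numbered mice was 0.0385. With the number as a replicate block 0 genes passed in either line comparison, with 1001 and 800 at an unadjusted p under 0.05.

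Signs of log2 fold changes turned in 19 values between the lines, 28 by Acta2 class and 17 among Acta2-lower cells, none of them past the threshold. Between the lines (Lgr5 minus Lgr6), Tbx5 turned to 0.11 by DESeq2 and with its size factors, 0.057 with plain library sizes, and 0.33 both on the mean log2(TPM + 1) and without epithelial-marker cells. Tbx4 turned to -0.17 on the mean log2(TPM + 1), -1.41 and -1.31 on mean TPM plus 0.1 and plus 1, -1.02 with all wells and -0.53 with the replicate block. Mef2c turned to 0.024 on the mean log2(TPM + 1), Foxf1 to 0.18 without epithelial-marker cells and Gata6 to 0.0031 with the replicate block. With each mouse left out, Tbx4 ran from -2.31 to 1.03, Tbx5 from -0.38 to 0.32 and Gata6 from -0.85 to 1.11.

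Among Acta2-lower cells, on the mean log2(TPM + 1) Tbx4 turned to -0.19, Gata6 to -0.19, Mef2c to 0.50 and Hoxa5 to 0.017. On mean TPM plus 0.1 and plus 1, Tbx4 turned to -1.51 and -1.39, Gata6 to -0.88 and -0.77, Tbx5 to -0.25 and -0.24 and Foxf1 to -0.25 and -0.24. Tbx4 was at -0.67 with the replicate block. With each mouse left out, Tbx4 ran from -2.43 to 1.14, Gata6 from -0.46 to 0.66 and Foxf1 from -0.11 to 1.93.

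By Acta2 class (high minus lower), Tbx4 turned to 0.064 with plain library sizes, 0.071 on the mean log2(TPM + 1), 0.0055 without Rn45s, 0.41 without the replicate block and 0.47 with classes of 1 cell. Gata6 turned to -0.17 on the mean log2(TPM + 1), and to -0.068 and -0.043 on mean TPM, where Tbx5 was at -0.28 and -0.27. Without epithelial-marker cells Tbx2 was at -0.54 and Mef2c at -0.57, and without the replicate block Mef2c was at -0.024. At an Acta2 limit of 10, Tbx2 was at -1.56, Tbx3 at -1.38, Mef2c at -3.47, Hoxa5 at -2.51 and Gata6 at -0.39. With classes of 1 cell, Tbx2 was at -0.91, Tbx3 at -0.84, Tbx5 at -0.57, Mef2c at -1.11, Hoxa5 at -0.30 and Gata6 at -1.01. With each mouse left out, Tbx3 ran from -0.17 to 1.35, Tbx4 from -1.21 to 1.16, Mef2c from -0.46 to 0.89 and Gata6 from -0.65 to 0.90. Of 338 shares of cells at a TPM of 1 or thinned to 99000 reads, 293 lay within the counting interval of the share with a count and 45 outside it. Twist1, at 0 counts, has only its upper limit of 1.65% of kept cells. The sums without a factor's top cell were chosen after seeing the data.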
